A study of Homo sapiens with 9 samples.

Results

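The comparison described here set SKOV3 cells treated with carboplatin and COM33 against untreated SKOV3 cells, across every gene with enough reads. SKOV3 is an established human ovarian cancer line, grown in medium with fetal bovine serum, per the labels' protocols. The 3 libraries labelled Carbo+COM33 and the 3 labelled control are compared, and the 3 labelled Carbo are shown beside them. Carbo is taken to be carboplatin from the stated aim of the series, which is how COM33 raises carboplatin sensitivity. COM33 is known here by its code name alone. No dose or time is given for either agent. The Carbo libraries allow the step with carboplatin alone and the step on adding COM33 to it to be set side by side. No library had COM33 without carboplatin, so a change by COM33 alone cannot be told apart from one that needs both agents. A gene was a member when it had at least 10 counts in 3 or more of the 6 libraries, which held for 16147 of the 32378 genes in the table. Nothing in the labels says that replicates were separate cultures, so the p-values speak only of the spread among these libraries, part of which may be technical.

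Carboplatin is a platinum drug that forms crosslinks in DNA; the crosslinks block replication, and cells answer with checkpoint arrest, repair or apoptosis. Ovarian cancer cells carry mixed epithelial and mesenchymal features, and the shift between them is run by transcription factors of the SNAI, ZEB and TWIST families. ERK signalling from RAS and receptor kinases drives proliferation genes together with its own inhibitors, the DUSP phosphatases and Sprouty proteins. NF-kappaB and IL6 signalling set the output of cytokines and survival factors, and SKOV3 is known for ERBB2 amplification.

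The 6 libraries held 13851760 to 14869356 counts each. A single count was worth 0.0665 to 0.0739 CPM, where CPM is a gene's count scaled to a common library total after edgeR's trimmed mean of M-values (TMM). Levels are listed in the order of replicates 1, 2 and 3. All 12 ovarian tumour epithelium markers reached the count minimum. Their summed level ran from 4219.7 to 4435 CPM in control, 4088 to 4451 in Carbo and 3173 to 3573 in Carbo+COM33. ERBB2 made up a large part of these sums, and 3 of the 12 markers were called, all lower. The 12 blood and immune markers summed to 1.18 to 1.98 CPM in control and 0.813 to 1.45 in Carbo+COM33, none reached the count minimum, and 2 of them were at 0. Carbo+COM33 3 stood apart from its group on the second principal component, which took 33.1% of the variance. It lay at 3.37, against -13.81 and -10.33 for Carbo+COM33 1 and 2 and 7.01 to 11.88 for control. The first component (51.3% of the variance) set replicate 1 apart from replicates 2 and 3 within control and within Carbo. Control and Carbo overlapped on it. Control 1 lay at 9.15, within the 7.60 to 12.67 of Carbo+COM33, and control 2 and 3 at -3.52 and -7.00. Carbo 1 lay at 3.61, and Carbo 2 and 3 at -13.58 and -19.71. The libraries also differed by base content. The median deviation of genes over 60% GC was 0.18, 0.19 and 0.08 log2 units in control, and -0.18, -0.12 and 0.13 in Carbo+COM33. Among genes over 60% GC the median log2 fold change was -0.21, with 17 called higher and 181 lower, and among genes under 40% GC it was 0.14, with 171 called higher and 13 lower. After a fit that removed the GC and length trend in each library, 101 genes over 60% GC were called higher and 65 lower, and 79 genes under 40% GC higher and 46 lower. How far base content contributes to single genes was not tested beyond that fit.

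**Figure D1:**
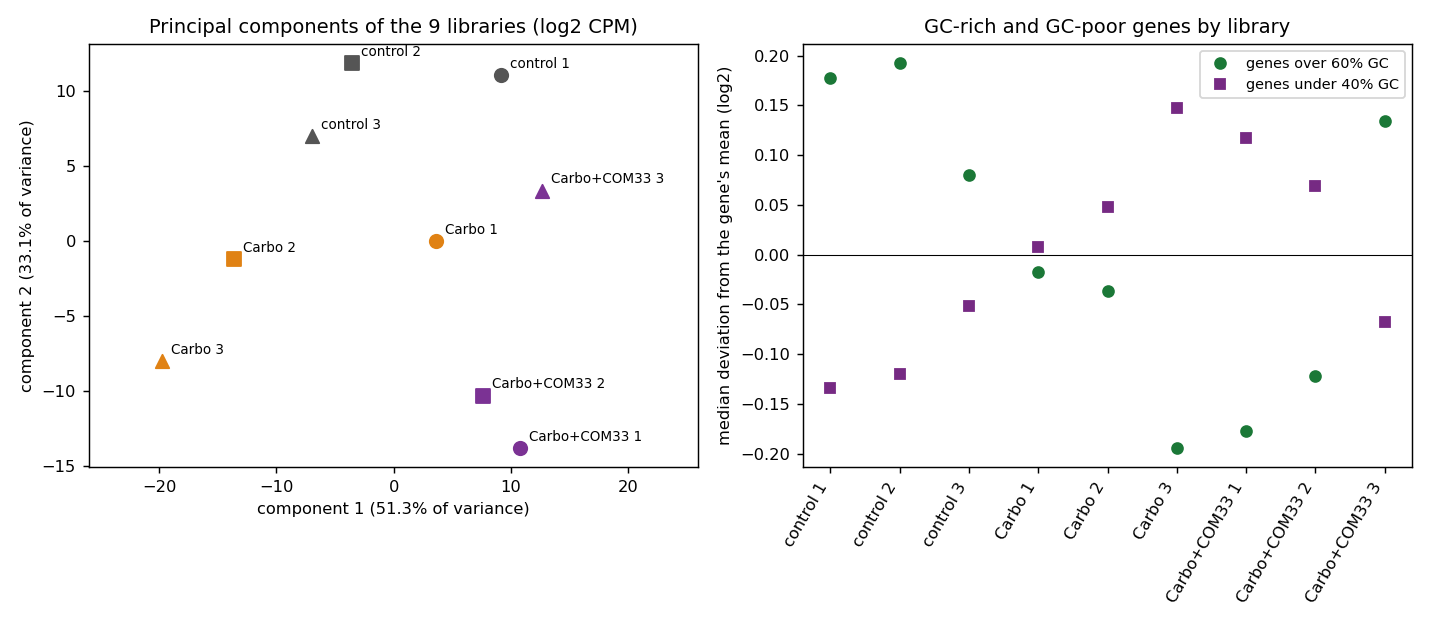
Left, the 9 libraries on the first (51.3% of variance) and second (33.1%) principal components of log2 CPM, coloured by group, with circles, squares and triangles for replicates 1 to 3. Right, for each library, the median deviation from a gene's mean level (log2) over genes above 60% GC (green circles) and below 40% GC (purple squares); Carbo+COM33 3 lies on the control side for both.

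Cells given both agents had lower levels of KRT7 and KRT17 among the keratins, of ID1 and ID3, of the cytokine IL6, of the matrix genes SMOC1 and NID2 and of the receptor ERBB2 than control cells. They had higher levels of the NF-kappaB inhibitor TNFAIP3, of the colony-stimulating factors CSF1 and CSF2, of the IL6 receptor subunits IL6R and IL6ST, of cyclin D1 and of the pro-apoptotic gene HRK. KRT7, ID1, ID3, ERBB2, IL6R and cyclin D1 did not keep an adjusted p under 0.05 in every fit that left out 1 library. The other genes named here did. Of 16147 genes tested with edgeR's quasi-likelihood test, 1052 were called at an adjusted p under 0.05 (6.52%). Of these, 545 were higher in Carbo+COM33 (3.38% of those tested) and 507 lower (3.14%). Most changes were small: the median absolute log2 fold change of called genes was 0.55, 64 rose by more than 1 on the log2 scale and 100 fell by more than 1. Over all genes tested the median was -0.01. The 2 groups did not overlap in 1050 of the 1052 called genes, against 29.1% of all genes tested. That difference is largely set by the selection, since calls and overlap were read from the same libraries. Genes were named by their size of change, by their p and by membership of gene lists. Members named to complete a list's count were picked after their values were seen. The lists were chosen with earlier results of these data known, so their called shares may partly reflect that choice.

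**Figure D2:**
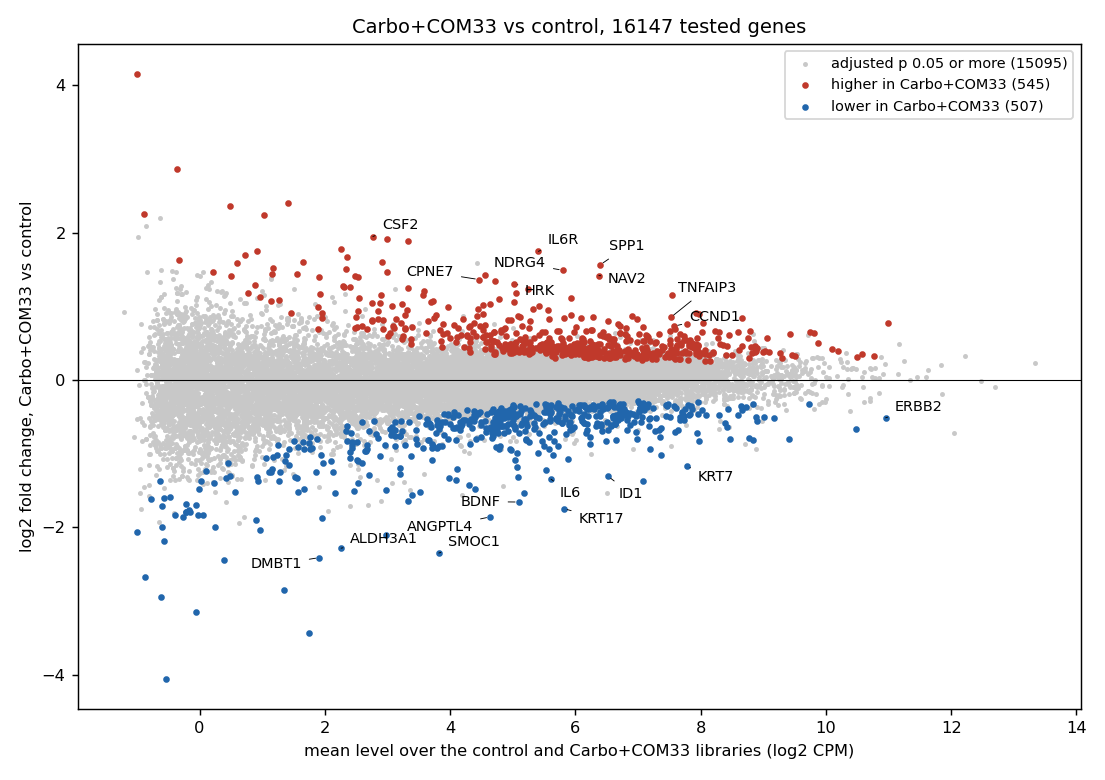
Each point is a tested gene, with its mean level over the 6 libraries on the x axis (log2 CPM) and its log2 fold change, Carbo+COM33 against control, on the y axis. Red (545) and blue (507) points are called higher and lower, and grey points (15095) are not called; NAV2, IL6R, SPP1 and HRK lie above 0, and SMOC1, KRT17 and IL6 below.

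NAV2 and NDRG4 were among the clearest rises. NAV2 (ENSG00000166833, chr11:19350724-20121598, GRCh38) encodes a neuron navigator protein of the cytoskeleton and had the lowest p of all genes. It was at 51.3, 43.9 and 40.4 CPM in control, 53.5, 47.0 and 47.9 in Carbo and 128, 122 and 113 in Carbo+COM33. The 3 Carbo+COM33 libraries lay above all 6 others, 2.67-fold higher than control (log2 fold change 1.42, SE 0.10, adjusted p = 6.23e-05). NDRG4 (ENSG00000103034, chr16:58462846-58513628), of the N-myc downstream-regulated family, was at 36.1, 26.8 and 24.8 CPM in control, 34.7, 22.4 and 19.1 in Carbo and 84.0, 82.1 and 80.1 in Carbo+COM33 (log2 fold change 1.49, SE 0.19, adjusted p = 0.00193). Control and Carbo overlapped and Carbo+COM33 did not reach down to either. HRK (ENSG00000135116, chr12:116856144-116881441) encodes harakiri, a BH3-only protein that binds and blocks the survival proteins BCL2 and BCL2L1. Its level was 21.9, 18.4 and 15.9 CPM in control, 18.4, 14.6 and 10.4 in Carbo and 47.6, 44.4 and 46.9 in Carbo+COM33, 2.47-fold higher than control (log2 fold change 1.31, SE 0.17, adjusted p = 0.00193). Against Carbo, HRK was also higher (log2 fold change 1.68, SE 0.17, adjusted p = 4.83e-04); 806 genes (4.99%) were called between those groups, which share the Carbo+COM33 libraries with the comparison to control.

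Other large rises were in membrane and secreted proteins. CSF2, the cytokine GM-CSF, rose 3.86-fold (log2 fold change 1.95, SE 0.24, adjusted p = 0.00193), IL6R, the IL6-binding receptor subunit, 3.35-fold (log2 fold change 1.75, SE 0.30, adjusted p = 0.00735) and SPP1, the secreted phosphoprotein osteopontin, 2.96-fold (log2 fold change 1.56, SE 0.33, adjusted p = 0.0194). SPP1 was at 63.7, 33.2 and 30.9 CPM in control, 62.8, 24.9 and 24.1 in Carbo and 138, 126 and 113 in Carbo+COM33; control 1 and Carbo 1 were the highest of the other 6 libraries, and Carbo+COM33 lay above them. Calcium-dependent membrane proteins were among them: CPNE7, a copine that binds phospholipid, went from 12.3 ± 1.34 CPM (SD, n = 3) to 31.7 ± 2.30 CPM (SD, n = 3), and DYSF, dysferlin of membrane repair, from 12.8 ± 2.27 CPM to 34.2 ± 3.31 CPM (SD, n = 3 each). PLA2G4C, a cytosolic phospholipase A2, rose 2.54-fold (log2 fold change 1.34, SE 0.15, adjusted p = 0.00146). Lower-level genes that rose were the ubiquitin ligase subunit ASB2 (1.60), the ubiquitin ligase NEURL3 (1.50) and the thyroid hormone-binding CRYM (1.89). The nitric oxide synthase NOS3 (1.40), KCP (1.42) and PRR20G (1.46) rose as well. All are given as log2 fold changes, with adjusted p from 0.00345 to 0.0469. TM4SF19 (1.91) and PSG2 (1.40) are uncertain, as is PRR20G: 28.4% of the exon bases of TM4SF19 lie in an antisense gene, whether counting used strand is not given in the sources used here, and the others have close paralogs. NAV2, NDRG4, CSF2, HRK, CPNE7, PLA2G4C, DYSF, ASB2, NEURL3, PRR20G, TM4SF19 and PSG2 kept the call with each of the 9 libraries left out in turn. IL6R, SPP1, CRYM, KCP and NOS3 lost it in 1 or more of those fits. Across these genes the highest adjusted p was 0.2003 without control 2, 0.149 without control 3 and 0.201 without Carbo+COM33 1. It was 0.179 without Carbo+COM33 2, 0.0683 without Carbo+COM33 3 and 0.0724 without Carbo 2. IL6R lost the call only without control 2 (adjusted p = 0.0596).

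SMOC1 showed one of the largest falls. SMOC1 (ENSG00000198732, chr14:69854131-70032366), a secreted calcium-binding matrix protein that modulates BMP signalling, was at 16.95, 24.2 and 29.7 CPM in control, 29.7, 34.5 and 36.9 in Carbo and 4.07, 4.55 and 5.26 in Carbo+COM33. Every Carbo+COM33 library was below the other 6, 5.09-fold lower than control (log2 fold change -2.35, SE 0.20, adjusted p = 2.78e-04). Against Carbo the difference was also called (log2 fold change -2.86, SE 0.20, adjusted p = 4.94e-05). The gene of the epithelial scavenger receptor DMBT1 was at 4.29, 6.92 and 7.79 CPM in control, 5.75, 8.65 and 12.3 in Carbo and 1.18, 1.68 and 0.692 in Carbo+COM33, so every Carbo+COM33 library lay below the other 6 (log2 fold change -2.41, SE 0.37, adjusted p = 0.00432). ANGPTL4 (ENSG00000167772, chr19:8363289-8374373), a secreted inhibitor of lipoprotein lipase and a known target of PPAR factors and hypoxia, was at 43.2, 41.8 and 32.1 CPM in control, 36.9, 28.7 and 20.3 in Carbo and 9.17, 10.5 and 12.6 in Carbo+COM33 (log2 fold change -1.86, SE 0.20, adjusted p = 0.00137). Carbo lay between control and Carbo+COM33 for this gene, overlapping control.

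Falls also reached growth factors and cell-surface proteins. BDNF, the brain-derived neurotrophic factor, went from 51.9 ± 14.3 CPM to 16.4 ± 2.48 CPM (SD, n = 3 each) (log2 fold change -1.66, SE 0.26, adjusted p = 0.00482), and ARTN, a ligand of the GDNF family, from 31.2 ± 2.56 CPM to 11.2 ± 5.50 CPM (SD, n = 3 each) (log2 fold change -1.47, SE 0.26, adjusted p = 0.00840). FLRT3, an adhesion protein that partners FGF receptors, fell by 2.10 in log2 terms (adjusted p = 0.0322), MXRA8, an adhesion molecule of the matrix, by 1.64 (adjusted p = 0.00193), and the RNA-binding gene RBMS3 by 1.49 (adjusted p = 0.0423). The zinc-finger gene ZSCAN31 was at 40.6, 52.5 and 52.7 CPM in control, 43.1, 52.96 and 56.0 in Carbo and 16.8, 22.6 and 19.2 in Carbo+COM33 (log2 fold change -1.31, SE 0.14, adjusted p = 0.00137). LIMCH1, which activates non-muscle myosin, was at 33.6, 56.7 and 71.5 CPM in control, 38.5, 86.7 and 117 in Carbo and 18.5, 20.7 and 16.9 in Carbo+COM33 (log2 fold change -1.53, SE 0.34, adjusted p = 0.0237). For LIMCH1, control 1 and Carbo 1 were the lowest of their groups and Carbo+COM33 lay below both. Further falls were the dynein assembly factor DAW1 (-1.56), the enamel protein amelotin AMTN (-1.51) and SSC5D (-1.53), as log2 fold changes. With each of the 9 libraries left out in turn, SMOC1, DMBT1, ANGPTL4, KRT17, BDNF, MXRA8, DAW1 and ZSCAN31 kept the call. ALDH3A1, FLRT3, LIMCH1, RBMS3, ARTN, AMTN, SSC5D and KRT81 lost it in 1 or more of those fits. In those fits the highest adjusted p was 0.162 without control 2, 0.148 without control 3, 0.196 without Carbo+COM33 1, 0.145 without Carbo+COM33 2, 0.0737 without Carbo+COM33 3 and 0.0652 without Carbo 2. SSC5D (adjusted p = 0.0777) was no longer called once GC content and length were corrected for.

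**Figure D3:**
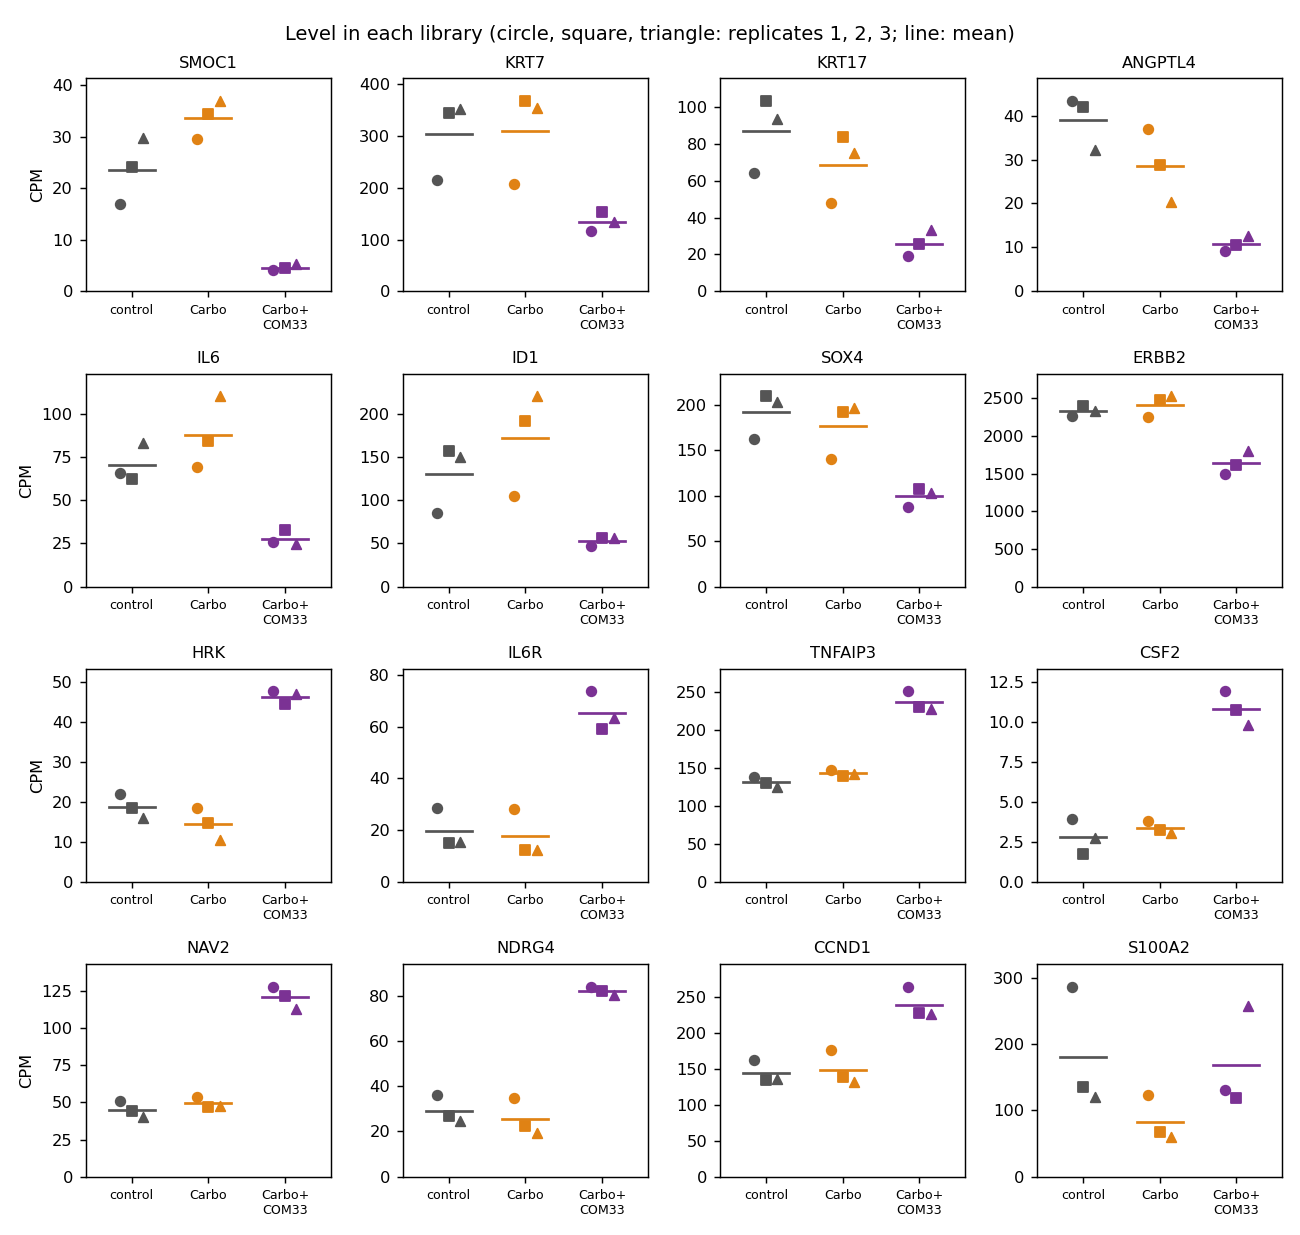
Level of 16 genes in each of the 9 libraries (CPM, y axes from 0), by group, with the group mean as a line. In every panel but S100A2 the 3 Carbo+COM33 points lie clear of the control points; S100A2 overlaps.

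Among transcription factors of the epithelial-mesenchymal shift, SNAI2 rose and SOX4 fell. Of this list 1 rose and 1 fell of 17 tested, with a median log2 fold change of 0.06, a called share of 11.8% against 6.52% of all genes. SOX4 (ENSG00000124766, chr6:21592768-21598619), a factor that promotes mesenchymal programmes in many tumours, was at 162, 209.5 and 204 CPM in control, 141, 193 and 196 in Carbo and 88.2, 108 and 103 in Carbo+COM33 (log2 fold change -0.94, SE 0.14, adjusted p = 0.00319). SNAI2, which encodes the repressor SLUG, was at 156, 177 and 176 CPM in control, 157, 204 and 202 in Carbo and 252, 250.4 and 214 in Carbo+COM33 (log2 fold change 0.49, SE 0.11, adjusted p = 0.0234); Carbo overlapped control. ZEB1 (0.26, adjusted p = 0.184), ZEB2 (0.25, adjusted p = 0.166), TWIST1 (-0.33, adjusted p = 0.259) and SNAI1 (0.11, adjusted p = 0.914) did not pass the test, and SNAI1 stood at only 0.702 CPM in control. VIM, the mesenchymal filament vimentin, had a log2 fold change of 0.16 (SE 0.14, adjusted p = 0.512), and CDH2, N-cadherin, of 0.03 (SE 0.12, adjusted p = 0.904). Of the mesenchymal list 1 rose and 0 fell of 23 tested (4.35% called), with a median log2 fold change of -0.03; the riser was CD44, the hyaluronan receptor (0.40, adjusted p = 0.0231), and FN1 (-0.19, adjusted p = 0.614) was not called. CDH1, E-cadherin, had 10 counts over the 6 libraries and was not tested. Without 1 of the libraries, calls went from 1 (without control 2) to 5 (without Carbo+COM33 3) in the list of factors and 0 (without control 2) to 3 (without Carbo 1) in the mesenchymal list. Without Carbo+COM33 3, ZEB1 (adjusted p = 0.0322), ZEB2 (adjusted p = 0.0211) and TWIST1 (adjusted p = 0.0485) were called. The call held for SOX4 in all 9 fits that left out 1 library. SNAI2 and CD44 lost it in 1 or more of those fits. The higher of their adjusted p was 0.0506 without control 1, 0.106 without control 2 and 0.0715 without control 3. It was 0.121 without Carbo+COM33 1 and 0.107 without Carbo+COM33 2.

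Of the keratins, the intermediate filaments of epithelial cells, KRT7, KRT16, KRT17, KRT81 and KRT86 fell. In that list 0 rose and 5 fell of 12 tested, with a median log2 fold change of -0.28. The called share was 41.7%, against 6.52% of all genes. KRT7 (ENSG00000135480, chr12:52232520-52252186), a keratin of ovarian and other simple epithelia, was at 214, 344 and 353 CPM in control, 208, 367 and 355 in Carbo and 117, 153 and 135 in Carbo+COM33. Control 1 and Carbo 1 were lower than the rest of their groups, and all Carbo+COM33 libraries were lower still (log2 fold change -1.17, SE 0.22, adjusted p = 0.0111). KRT17, a keratin of basal and stressed epithelium, was at 64.1, 103 and 93.3 CPM in control, 47.7, 83.7 and 74.8 in Carbo and 19.1, 25.4 and 33.0 in Carbo+COM33 (log2 fold change -1.75, SE 0.24, adjusted p = 0.00234), and KRT16 was lower by 2.79-fold (log2 fold change -1.48, SE 0.25, adjusted p = 0.00644); both have close paralogs and pseudogenes. KRT81 (-3.43, adjusted p = 0.0242) and KRT86 (-1.30, adjusted p = 0.0306) are close paralogs and their split is uncertain. Of the other epithelial genes, 1 rose and 2 fell of 30 tested (10.0% called), with a median log2 fold change of -0.07: the tight-junction claudin CLDN7 (-0.99, adjusted p = 0.0206) and the plakoglobin gene JUP (-0.71, adjusted p = 0.0116) fell, and the desmosomal cadherin DSG2 rose (0.38, adjusted p = 0.0280). EPCAM (-0.18, adjusted p = 0.493) and the P-cadherin gene CDH3 (-0.48, adjusted p = 0.264) did not pass. Among the 12 ovarian tumour epithelium markers, KRT7, ERBB2 and the mesothelin gene MSLN (-0.48, adjusted p = 0.0293) fell and none rose (25.0% called). Calls with a library left out numbered from 1 (without control 2) to 7 (without Carbo+COM33 3) among keratins, 0 (without control 2) to 6 (without Carbo+COM33 3) among the other epithelial genes and 0 (without control 2) to 6 (without control 1) among the tumour markers. KRT17 kept the call with each of the 9 libraries left out in turn. KRT7, KRT16, KRT81, KRT86, CLDN7, JUP, DSG2, ERBB2 and MSLN lost it in 1 or more of those fits. The highest adjusted p of any of these genes was 0.0656 without control 1, 0.141 without control 2 and 0.0929 without control 3. It was 0.152 without Carbo+COM33 1, 0.141 without Carbo+COM33 2 and 0.0507 without Carbo 2 (DSG2). MSLN (adjusted p = 0.0670) was no longer called once GC content and length were corrected for.

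ERK output genes moved in both directions. Of this list 3 rose and 2 fell of 33 tested (15.2% called), with a median log2 fold change of 0.04. CCND1 (ENSG00000110092, chr11:69641087-69654474), cyclin D1, which drives entry into the cell cycle, was at 162, 134 and 135 CPM in control, 176, 139 and 132 in Carbo and 264, 227 and 226 in Carbo+COM33 (log2 fold change 0.73, SE 0.12, adjusted p = 0.00558). The ERK phosphatase DUSP5 was at 117, 117 and 120.4 CPM in control, 114, 108 and 114 in Carbo and 163, 151 and 172 in Carbo+COM33 (log2 fold change 0.45, SE 0.07, adjusted p = 0.00572), while DUSP4, another phosphatase of the family, was at 122, 122 and 124 CPM in control, 125, 122 and 123 in Carbo and 90.5, 91.8 and 91.1 in Carbo+COM33 (log2 fold change -0.43, SE 0.07, adjusted p = 0.00525). The 2 phosphatases thus went opposite ways in the same libraries. HMGA2, a chromatin architectural factor, rose (0.43, adjusted p = 0.0313) and the cytokine IL11 fell (-1.21, adjusted p = 0.00726). DUSP6 (0.06, adjusted p = 0.781), SPRY2 (0.04, adjusted p = 0.857), SPRY4 (0.11, adjusted p = 0.544), ETV4 (-0.25, adjusted p = 0.249), ETV5 (0.14, adjusted p = 0.353), FOSL1 (0.18, adjusted p = 0.255) and MYC (0.03, adjusted p = 0.878) did not pass the test. FOSL1 was called after the GC and length trend was removed (log2 fold change 0.35, adjusted p = 0.0154). For DUSP6, 40.5% of exon bases lie in an opposite-strand gene. EGR1 was at 10.7, 28.6 and 34.4 CPM in control, 13.9, 44.2 and 43.1 in Carbo and 9.17, 13.5 and 15.1 in Carbo+COM33, a wide spread with no call (log2 fold change -0.96, SE 0.43, adjusted p = 0.192). Without control 1 it was called (adjusted p = 0.0494). The loss of 1 library moved calls over the range 1 (without control 2) to 6 (without Carbo 1) in the ERK list.

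Among the components of the MAPK cascade, 3 rose and 1 fell of 38 tested (10.5% called), with a median log2 fold change of 0.03. NRAS, a RAS GTPase (0.49, adjusted p = 0.0155), RAP1B, a related GTPase (0.65, adjusted p = 0.00388), and MAP2K3, an activator of p38 kinases (0.51, adjusted p = 0.00748), rose. SHC1, the adaptor that links receptor kinases to RAS, fell from 141 ± 4.82 CPM to 92.1 ± 8.98 CPM (SD, n = 3 each) (log2 fold change -0.62, SE 0.10, adjusted p = 0.00447). MAPK3, which encodes the kinase ERK1, had a log2 fold change of 0.02 (adjusted p = 0.898). Of the EGFR family and its ligands, 1 of 13 tested was called (7.69%). ERBB2 (ENSG00000141736, chr17:39687914-39730426), the amplified receptor of this line, was at 2269, 2401 and 2325 CPM in control, 2249, 2469.6 and 2524 in Carbo and 1491, 1610.4 and 1799 in Carbo+COM33, 1.43-fold lower than control (log2 fold change -0.51, SE 0.09, adjusted p = 0.00839). Carbo and control overlapped for ERBB2. With 1 library left out, calls ran from 3 (without control 2) to 11 (without Carbo+COM33 3) among cascade components and 0 (without control 2) to 3 (without Carbo 1) in the EGFR list. With each of the 9 libraries left out in turn, DUSP4, MAP2K3, RAP1B and SHC1 kept the call. CCND1, DUSP5, HMGA2, IL11, NRAS and ERBB2 lost it in 1 or more of those fits. HMGA2 had the highest adjusted p, at 0.149 without control 2, 0.119 without control 3, 0.161 without Carbo+COM33 1 and 0.0810 without Carbo+COM33 2. CCND1 (0.0517), DUSP5 (0.0517) and IL11 (0.0520) lost the call only without control 2. HMGA2 (adjusted p = 0.107) was no longer called once GC content and length were corrected for.

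AP-1 and immediate early genes, which respond quickly to growth signals and stress, were called in 25.0% of those tested, against 6.52% of all genes. Of 28 tested, 4 were higher and 3 lower. The higher genes were the zinc-finger factors KLF10, KLF6 and KLF2 and the AP-1 subunit JUN, and the lower ones were its relatives JUND and FOSL2 and the small MAF factor MAFK. KLF6 was at 816, 657 and 643 CPM in control, 765, 707 and 728 in Carbo and 1193, 1046 and 1049 in Carbo+COM33 (log2 fold change 0.64, SE 0.10, adjusted p = 0.00522). JUND was at 196, 213 and 199 CPM in control, 185, 181 and 156 in Carbo and 121, 122 and 144 in Carbo+COM33 (log2 fold change -0.65, SE 0.09, adjusted p = 0.00319), and its log2 fold change was -0.32 (adjusted p = 0.0374) once the GC and length trend was removed. JUN (0.34, adjusted p = 0.0283) and JUND thus differed in direction, while FOS (0.09, adjusted p = 0.911) did not pass, at 1.45 CPM in control. FOSL2 (-0.41, adjusted p = 0.0196) and MAFK (-0.74, adjusted p = 0.0382) were lower, and KLF10 (0.89, adjusted p = 0.0103) and KLF2 (0.65, adjusted p = 0.0133) higher. Without 1 of the libraries, calls went from 1 (without control 2) to 12 (without Carbo 1) in this list. The call held for JUND in all 9 fits that left out 1 library. KLF10, KLF6, KLF2, JUN, FOSL2 and MAFK lost it in 1 or more of those fits. In those fits the highest adjusted p was 0.0791 without control 1 (MAFK), 0.145 without control 2, 0.124 without control 3, 0.186 without Carbo+COM33 1, 0.167 without Carbo+COM33 2 and 0.0619 without Carbo 2.

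NF-kappaB genes and cytokines were called in 36.7% of those tested, against 6.52% of all genes. In this list 8 rose and 3 fell of 30 tested, with a median log2 fold change of 0.18. The rises were TNFAIP3, NFKBIZ, BIRC3, TRAF1 and the cytokines CSF1, CSF2, TNF and IL32. The falls were IL6 and the chemokines CXCL2 and CXCL3. NFKBIA, NFKBIB, NFKBIE and the chemokines CXCL1, CXCL8, CCL5 and CCL20 were not called. Promoters of both directions are shown together. Promoter windows of 250 bases before to 50 after the start site are from RefSeq on GRCh38.p14. Capitals mark matches to the NF-kappaB consensus on either strand. The windows shown are those of 2 genes that rose, TNFAIP3 (chr6:137867009-137867308, plus strand) and BIRC3 (chr11:102317234-102317533, plus strand), and 2 that fell, IL6 (chr7:22726950-22727249, plus strand) and CXCL2 (chr4:74099146-74099445, minus strand), written 5′ to 3′ along the gene.
TNFAIP3: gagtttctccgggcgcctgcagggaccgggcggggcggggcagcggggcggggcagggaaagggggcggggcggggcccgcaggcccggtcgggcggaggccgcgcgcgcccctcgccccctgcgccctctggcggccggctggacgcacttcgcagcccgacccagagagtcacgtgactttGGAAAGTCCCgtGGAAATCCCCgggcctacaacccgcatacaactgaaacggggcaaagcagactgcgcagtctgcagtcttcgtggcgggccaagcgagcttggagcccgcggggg
BIRC3: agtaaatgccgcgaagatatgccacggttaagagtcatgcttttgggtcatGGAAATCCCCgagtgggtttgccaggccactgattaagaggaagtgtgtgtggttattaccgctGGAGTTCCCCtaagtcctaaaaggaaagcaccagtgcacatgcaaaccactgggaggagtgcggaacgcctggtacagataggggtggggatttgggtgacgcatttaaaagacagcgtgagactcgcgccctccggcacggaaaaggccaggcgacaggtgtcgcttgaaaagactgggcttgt
IL6: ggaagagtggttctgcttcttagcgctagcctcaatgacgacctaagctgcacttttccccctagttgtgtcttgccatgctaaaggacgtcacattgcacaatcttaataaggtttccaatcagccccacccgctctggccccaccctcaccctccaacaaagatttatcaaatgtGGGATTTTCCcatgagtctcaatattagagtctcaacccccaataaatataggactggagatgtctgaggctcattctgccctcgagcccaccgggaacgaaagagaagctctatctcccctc
CXCL2: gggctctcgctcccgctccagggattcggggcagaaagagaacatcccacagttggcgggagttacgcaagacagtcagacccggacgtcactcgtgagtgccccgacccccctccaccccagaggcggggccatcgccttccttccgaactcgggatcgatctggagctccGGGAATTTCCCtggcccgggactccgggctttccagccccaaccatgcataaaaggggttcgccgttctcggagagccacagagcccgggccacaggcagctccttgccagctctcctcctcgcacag
The capitals begin at -67 and -55 from the start site in TNFAIP3, at -199 and -135 in BIRC3 and at -73 in IL6. In CXCL2, 2 matches that overlap by all but 1 base begin at -78 and -77. A match was found in 4 of the 7 promoters of rising members (57.1%) and in 3 of the 3 of falling members, against 13 of 25 over the tested members with a window (52.0%), 13.2% over the 10921 promoters of tested genes and 10.8% over all 27305. Of the falling members, CXCL2 and CXCL3 are close paralogs with the same matched sequence, so their matches are not independent. Genes that rose and genes that fell thus both held matches, and CSF2, TNF and TRAF1 rose with no match in this window.

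TNFAIP3, the ubiquitin-editing enzyme A20 that switches NF-kappaB signalling off, was at 138, 130.05 and 126 CPM in control, 148, 139.8 and 141 in Carbo and 251, 231 and 228 in Carbo+COM33. The Carbo+COM33 values lay clear of the other 6 (log2 fold change 0.85, SE 0.08, adjusted p = 2.99e-04). CSF1, the macrophage colony-stimulating factor, was at 192, 214 and 179 CPM in control, 220.3, 195 and 178 in Carbo and 318, 324 and 354 in Carbo+COM33 (log2 fold change 0.77, SE 0.10, adjusted p = 0.00193), and TRAF1, an adaptor of TNF receptors, rose 2.01-fold (log2 fold change 1.01, SE 0.13, adjusted p = 0.00193). BIRC3, an inhibitor of apoptosis, was at 23.2, 23.8 and 26.9 CPM in control, 28.1, 32.7 and 45.7 in Carbo and 48.5, 48.2 and 36.5 in Carbo+COM33; Carbo lay above control and overlapped Carbo+COM33, and the difference of Carbo+COM33 from Carbo was not called (log2 fold change 0.32, SE 0.16, adjusted p = 0.267). NFKBIZ (0.52, adjusted p = 0.0104), TNF (0.58, adjusted p = 0.0259) and IL32 (0.48, adjusted p = 0.0179) also rose, as did the TNF receptor family member TNFRSF9 (0.88, adjusted p = 0.00146), one of the 10 genes with the lowest p. The neutrophil chemokines CXCL2 (-0.38, adjusted p = 0.0133) and CXCL3 (-0.53, adjusted p = 0.0196) fell; they are close paralogs. Calls with a library left out numbered from 5 (without control 2) to 15 (without Carbo 1) in the NF-kappaB list. TNFAIP3, TRAF1, CSF1, CSF2, IL6 and TNFRSF9 kept the call with each of the 9 libraries left out in turn. BIRC3, NFKBIZ, TNF, IL32, CXCL2 and CXCL3 lost it in 1 or more of those fits. Among them the highest adjusted p was 0.0593 without control 1 (TNF), 0.109 without control 2 and 0.0916 without control 3. It was 0.0987 without Carbo+COM33 1 and 0.129 without Carbo+COM33 2.

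IL6 and its receptor went in opposite directions. IL6 (ENSG00000136244, chr7:22725884-22732002), the ligand, was at 65.5, 62.0 and 83.01 CPM in control, 69.1, 84.2 and 110.0 in Carbo and 25.9, 32.5 and 24.4 in Carbo+COM33, 2.54-fold lower than control (log2 fold change -1.35, SE 0.17, adjusted p = 0.00193). It was also lower than in Carbo (log2 fold change -1.67, SE 0.17, adjusted p = 4.83e-04), and 20.7% of its exon bases lie in genes of the opposite strand. IL6R was at 28.4, 14.9 and 15.3 CPM in control, 28.2, 12.1 and 12.3 in Carbo and 73.7, 59.2 and 63.5 in Carbo+COM33. IL6ST, the shared signalling subunit gp130, was at 239, 236 and 254 CPM in control, 297, 304 and 339 in Carbo and 418, 391 and 339 in Carbo+COM33 (log2 fold change 0.66, SE 0.09, adjusted p = 0.00291); Carbo lay between control and Carbo+COM33, and Carbo+COM33 against Carbo was not called (log2 fold change 0.29, SE 0.09, adjusted p = 0.0848). The related cytokine IL11 and the STAT3 target kinase PIM1 (-0.47, adjusted p = 0.0144) fell. Over the IL6 and STAT3 list, 2 rose and 3 fell of 18 tested (27.8% called), with a median log2 fold change of 0.10. The loss of 1 library moved calls over the range 2 (without control 2) to 8 (without Carbo+COM33 3) in that list. With each of the 9 libraries left out in turn, IL6ST kept the call. IL6R, PIM1 and IL11 lost it in 1 or more of those fits. PIM1 had the highest adjusted p, at 0.0840 without control 2, 0.0572 without control 3, 0.0847 without Carbo+COM33 1 and 0.0784 without Carbo+COM33 2. IL6R (0.0596) and IL11 (0.0520) lost the call only without control 2.

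Of the direct targets of BMP signalling, ID1, ID3 and SMAD6 fell and BAMBI, a decoy receptor, rose (0.55, adjusted p = 0.0306). These were the calls among 18 BMP targets tested (22.2% called), with a median of -0.27. ID1 (ENSG00000125968, chr20:31605283-31606515), an inhibitor of differentiation that blocks basic helix-loop-helix factors, was at 84.9, 157 and 149.6 CPM in control, 105, 192 and 220.5 in Carbo and 46.6, 56.0 and 55.9 in Carbo+COM33 (log2 fold change -1.30, SE 0.26, adjusted p = 0.0143). Control 1 and Carbo 1 were the lowest of their groups for ID1, and Carbo+COM33 lay below both. ID3 was at 20.3, 30.3 and 35.3 CPM in control, 19.1, 36.9 and 41.8 in Carbo and 7.69, 11.7 and 12.5 in Carbo+COM33 (log2 fold change -1.43, SE 0.28, adjusted p = 0.0152), and SMAD6, the inhibitory SMAD of the pathway, was lower by 2.56-fold (log2 fold change -1.36, SE 0.30, adjusted p = 0.0228). Of the TGF-beta targets 0 rose and 3 fell of 28 tested (10.7% called), with a median log2 fold change of -0.19: SMAD6, PMEPA1, a feedback inhibitor (-0.77, adjusted p = 0.00935), and the ligand TGFB1 (-0.54, adjusted p = 0.0239) fell. Of the WNT list 1 rose and 2 fell of 27 tested (11.1% called), with a median log2 fold change of -0.22; the secreted inhibitor DKK1 (-0.90, adjusted p = 0.0313) and the ligand WNT7A (-0.65, adjusted p = 0.0405) fell and CCND1 rose.

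YAP and TEAD targets, genes of mechanical and contact signalling, were called in 22.6% of those tested: 1 rose and 6 fell of 31 tested, with a median log2 fold change of -0.18. F3, tissue factor, which starts blood clotting, was at 715, 919.6 and 955 CPM in control, 717, 995 and 1041 in Carbo and 473, 508 and 505 in Carbo+COM33 (log2 fold change -0.80, SE 0.14, adjusted p = 0.00751). The falls were RBMS3 (-1.49, adjusted p = 0.0423), TEAD2 (-0.67, adjusted p = 0.0283), AJUBA (-0.64, adjusted p = 0.0150), AMOTL2 (-0.57, adjusted p = 0.0248) and IGFBP3 (-0.52, adjusted p = 0.0229), beside F3, and the rise was ASAP1 (0.36, adjusted p = 0.0397). In the IGF list 1 rose and 3 fell of 13 tested (30.8% called), with a median log2 fold change of -0.29: the binding protein IGFBP3 (-0.52, adjusted p = 0.0229), the receptor adaptor IRS1 (-0.57, adjusted p = 0.0402) and the receptor IGF1R (-0.34, adjusted p = 0.0322) fell, and IGF2R, which clears IGF2 and sorts lysosomal enzymes, rose (0.42, adjusted p = 0.0413). With 1 library left out, calls ran from 0 (without control 2) to 4 (without Carbo+COM33 3) for BMP, 0 (without control 2) to 9 (without Carbo 1) for TGF-beta, 0 (without control 2) to 6 (without Carbo 1) for WNT, 0 (without control 2) to 10 (without Carbo 1) for YAP and TEAD and 0 (without control 2) to 4 (without Carbo+COM33 3) for IGF. ID1, ID3, SMAD6, BAMBI, PMEPA1, TGFB1, DKK1, WNT7A, RBMS3, F3, TEAD2, AJUBA, AMOTL2, IGFBP3, ASAP1, IRS1, IGF1R and IGF2R lost the call in 1 or more of the 9 fits that each left out 1 library. Across this set the highest adjusted p was 0.0618 without control 1 (ASAP1), 0.189 without control 2 and 0.148 without control 3. It was 0.195 without Carbo+COM33 1, 0.172 without Carbo+COM33 2, 0.0737 without Carbo+COM33 3 and 0.0656 without Carbo 2. TGFB1 (adjusted p = 0.0563), WNT7A (adjusted p = 0.0570), TEAD2 (adjusted p = 0.0637), AMOTL2 (adjusted p = 0.0740) and IRS1 (adjusted p = 0.0541) were no longer called once GC content and length were corrected for.

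Among matrix genes SMOC1, NID2, COL18A1 and COL7A1 fell, and NOV and SPOCK1 rose. Of collagens and matricellular proteins 2 rose and 4 fell of 35 tested (17.1% called), with a median log2 fold change of -0.31. SMOC1 had the lowest p of the group; NID2, a basement membrane nidogen, was at 68.6, 81.2 and 90.6 CPM in control, 73.8, 96.6 and 108 in Carbo and 36.2, 38.7 and 39.7 in Carbo+COM33 (log2 fold change -1.07, SE 0.14, adjusted p = 0.00193), with 30.0% of its exon bases in an opposite-strand gene. COL18A1 (-0.79, adjusted p = 0.0321) and COL7A1 (-0.52, adjusted p = 0.0322), collagens of basement membrane and its anchoring fibrils, also fell. NOV, the matricellular protein CCN3, rose (0.96, adjusted p = 0.00388), as did the proteoglycan SPOCK1 (0.88, adjusted p = 0.0461). After the GC and length trend was removed the list's median was -0.12, with 2 higher and 3 lower. Of integrins and laminins 2 rose and 3 fell of 27 tested (18.5% called), with a median log2 fold change of 0.03: the integrin subunit ITGA6 (0.61, adjusted p = 0.0232) was among the rises, and ITGA7 (-0.89, adjusted p = 0.0395), LAMA5 (-0.50, adjusted p = 0.0234) and LAMB2 (-0.33, adjusted p = 0.0450) fell. None of these 3 falls was called after that correction, when 4 of the list were higher. Of actomyosin genes 2 rose and 4 fell of 32 tested (18.8% called), with a median log2 fold change of -0.07; MYH9 (0.33, adjusted p = 0.0447) and TPM3 (0.38, adjusted p = 0.0251) rose and LIMCH1 (-1.53, adjusted p = 0.0237), TPM2 (-0.69, adjusted p = 0.0312), PDLIM7 (-0.67, adjusted p = 0.0485) and ACTN4 (-0.56, adjusted p = 0.0292) fell. The single protease gene called, of 26 tested (3.85%), was ADAMTS15 (-0.59, adjusted p = 0.0424). Without 1 of the libraries, calls went from 3 (without control 2) to 12 (without Carbo 1) for collagens and matricellular proteins, 0 (without control 2) to 9 (without Carbo 1) for integrins and laminins, 0 (without control 2) to 9 (without Carbo 1) for actomyosin and 0 (without control 2) to 3 (without Carbo+COM33 3) for proteases. SMOC1, NID2 and NOV kept the call with each of the 9 libraries left out in turn. COL18A1, COL7A1, SPOCK1, ITGA6, ITGA7, LAMA5, LAMB2, MYH9, TPM3, LIMCH1, TPM2, PDLIM7, ACTN4 and ADAMTS15 lost it in 1 or more of those fits. In those fits the highest adjusted p was 0.0901 without control 1 (MYH9), 0.219 without control 2, 0.154 without control 3, 0.224 without Carbo+COM33 1, 0.172 without Carbo+COM33 2, 0.0586 without Carbo+COM33 3 (MYH9) and 0.0780 without Carbo 2. COL7A1 (adjusted p = 0.0822), SPOCK1 (adjusted p = 0.0693), ITGA7 (adjusted p = 0.0781), LAMA5 (adjusted p = 0.114), LAMB2 (adjusted p = 0.276), PDLIM7 (adjusted p = 0.170), ACTN4 (adjusted p = 0.103) and ADAMTS15 (adjusted p = 0.0957) were no longer called once GC content and length were corrected for.

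Several antioxidant and detoxifying enzymes fell. NRF2 is the factor that turns on such genes under oxidative stress, and of its targets 1 rose and 6 fell of 28 tested, with a median log2 fold change of -0.20, a called share of 25.0%. NQO1, a quinone reductase, was at 319, 316 and 316 CPM in control, 277, 279 and 257 in Carbo and 214, 220.0 and 247 in Carbo+COM33 (log2 fold change -0.48, SE 0.08, adjusted p = 0.00563). Among the falls were AKR1C1 (-0.72, adjusted p = 0.00447), AKR1C3 (-0.63, adjusted p = 0.00348), ABCC3 (-0.59, adjusted p = 0.00697), TRIM16L (-0.58, adjusted p = 0.0103) and NQO1 (-0.48, adjusted p = 0.00563); AKR1C1 and AKR1C3 are close paralogs, as are TRIM16L and TRIM16. The thioredoxin gene TXN rose (0.42, adjusted p = 0.0412). Of aldehyde dehydrogenases 0 rose and 4 fell of 15 tested (26.7% called), with a median log2 fold change of -0.19: ALDH3A1, which clears aldehydes in epithelia, was at 4.64, 8.85 and 10.4 CPM in control, 3.99, 8.46 and 11.3 in Carbo and 1.03, 1.82 and 2.01 in Carbo+COM33 (log2 fold change -2.28, SE 0.41, adjusted p = 0.0104), and ALDH3B1 (-0.77, adjusted p = 0.00312), ALDH3A2 (-0.44, adjusted p = 0.0111) and ALDH16A1 (-0.60, adjusted p = 0.0442) fell too. Platinum uptake and efflux genes had 1 of 20 called (5.0%). ABCC3, an efflux pump, went from 404 ± 45.3 CPM to 268 ± 17.8 CPM (SD, n = 3 each) (log2 fold change -0.59, SE 0.10, adjusted p = 0.00697). Calls with a library left out numbered from 3 (without control 2) to 10 (without Carbo 1) for NRF2, 1 (without control 2) to 5 (without Carbo+COM33 3) for aldehyde dehydrogenases and 0 (without control 2) to 4 (without Carbo 1) for uptake and efflux. With each of the 9 libraries left out in turn, AKR1C1, AKR1C3, NQO1 and ALDH3B1 kept the call. ABCC3, TRIM16L, TXN, ALDH3A1, ALDH16A1 and ALDH3A2 lost it in 1 or more of those fits. Of these genes the highest adjusted p was 0.202 without control 2, 0.156 without control 3 and 0.203 without Carbo+COM33 1. It was 0.172 without Carbo+COM33 2 and 0.0685 without Carbo 2. ABCC3 reached 0.0568 at most. ALDH16A1 (adjusted p = 0.127) was no longer called once GC content and length were corrected for.

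Glycolysis and hypoxia genes had 6 falls and no rise among 38 tested, with a median log2 fold change of -0.22. The called share was 15.8%, against 6.52% of all genes. CA12, a carbonic anhydrase, was at 56.3, 63.3 and 60.7 CPM in control, 60.2, 68.7 and 73.1 in Carbo and 33.4, 35.7 and 36.7 in Carbo+COM33 (log2 fold change -0.77, SE 0.10, adjusted p = 0.00193). The other falls were the lactate transporter SLC16A3 (-0.81, adjusted p = 0.0407), the collagen hydroxylase P4HA1 (-0.50, adjusted p = 0.0234), and the glycolytic enzymes PFKL (-0.40, adjusted p = 0.0263), PFKP (-0.39, adjusted p = 0.0167) and GPI (-0.38, adjusted p = 0.0413). SLC16A3 was at 621, 609 and 523 CPM in control, 448, 420.4 and 295 in Carbo and 248.8, 276 and 475 in Carbo+COM33, so Carbo lay below control and overlapped Carbo+COM33, whose replicate 3 was the highest of that group. Of PPAR and fat oxidation genes 1 rose and 2 fell of 19 tested (15.8% called), with a median log2 fold change of -0.11: ANGPTL4 and the fatty acyl dehydrogenase ACADVL (-0.50, adjusted p = 0.0231) fell and PPARG rose (0.41, adjusted p = 0.0301). In cholesterol and fatty acid synthesis, 4 rose and 1 fell of 33 tested (15.2% called), with a median log2 fold change of 0.05. EBP, a sterol isomerase late in the cholesterol pathway, was at 59.6, 62.4 and 54.9 CPM in control, 46.6, 45.4 and 45.6 in Carbo and 30.7, 31.7 and 32.4 in Carbo+COM33 (log2 fold change -0.90, SE 0.08, adjusted p = 3.89e-04), while INSIG1 (0.61, adjusted p = 0.0273) and SCD (0.45, adjusted p = 0.0367) were among the rises. Ribosomal protein genes had 7 falls and no rise among 78 tested (8.97% called, median -0.10). Their many pseudogenes leave single members uncertain, RPL23A (-0.89, adjusted p = 0.00956) among them. Nuclear genes of oxidative phosphorylation had 1 rise, NDUFA5 (0.36, adjusted p = 0.0382), and 1 fall, COX5A (-0.40, adjusted p = 0.0487), of 67 tested (2.99% called). The loss of 1 library moved calls over the range 1 (without control 2) to 9 (without Carbo 1) for glycolysis and hypoxia, 1 (without control 2) to 5 (without Carbo 1) for PPAR, 1 (without control 2) to 6 (without Carbo+COM33 3) for cholesterol and fatty acids, 0 (without Carbo+COM33 1) to 16 (without Carbo+COM33 3) for ribosomal proteins and 0 (without control 2) to 8 (without Carbo+COM33 3) for oxidative phosphorylation. The call held for CA12 and EBP in all 9 fits that left out 1 library. SLC16A3, P4HA1, PFKL, PFKP, GPI, ACADVL, PPARG, INSIG1, SCD, RPL23A, NDUFA5 and COX5A lost it in 1 or more of those fits. Taking the highest of these genes in each fit, adjusted p was 0.0905 without control 1, 0.189 without control 2 and 0.140 without control 3. It was 0.215 without Carbo+COM33 1, 0.195 without Carbo+COM33 2 and 0.0771 without Carbo 2. PFKL (adjusted p = 0.204), GPI (adjusted p = 0.0619) and NDUFA5 (adjusted p = 0.243) were no longer called once GC content and length were corrected for.

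Called shares of the lists on crosslink repair, the cell cycle and apoptosis ran from 0% to 11.8%, against 6.52% of all genes. None of the 39 crosslink repair and recombination genes was called by edgeR's quasi-likelihood test (median -0.01), with 4 higher and 1 lower at an unadjusted p under 0.05, and DESeq2 called 2 higher and 0 lower. Of mitotic genes 2 rose and 1 fell of 58 tested (5.17% called), with a median log2 fold change of 0.17; the mitotic kinesin KIF20B (0.63, adjusted p = 0.0331) and securin PTTG1 (0.42, adjusted p = 0.0457) rose and the kinesin KIF18B (-0.55, adjusted p = 0.0149) fell. KIF20B was at 28.7, 22.6 and 27.1 CPM in control, 34.6, 36.2 and 45.5 in Carbo and 47.5, 42.4 and 31.6 in Carbo+COM33, with Carbo above control and overlapping Carbo+COM33. Of genes of DNA replication 2 rose and 1 fell of 48 tested (6.25% called), with a median log2 fold change of -0.12: GINS3 (0.51, adjusted p = 0.0273) and E2F7 (0.49, adjusted p = 0.00886) rose and E2F2 fell (-1.40, adjusted p = 0.0375). CCND1 was the one call among 15 D cyclins and CDK inhibitors. Apoptosis regulators had 4 rises and no fall among 34 tested (11.8%). Among them were HRK and the death receptor TNFRSF10A (0.38, adjusted p = 0.0377), which promote cell death, and the inhibitor BIRC3, which opposes it. With 1 library left out, calls ran from 0 (without control 2) to 3 (without Carbo+COM33 3) for repair, 0 (without control 2) to 8 (without Carbo 1) for mitosis, 0 (without control 2) to 9 (without Carbo 1) for replication, 0 (without control 2) to 3 (without Carbo 1) for D cyclins and CDK inhibitors and 1 (without control 2) to 6 (without Carbo+COM33 3) for apoptosis. PTTG1, KIF20B, KIF18B, E2F7, GINS3, E2F2 and TNFRSF10A lost the call in 1 or more of the 9 fits that each left out 1 library. At its highest among these genes, adjusted p was 0.0775 without control 1, 0.189 without control 2 and 0.131 without control 3. It was 0.210 without Carbo+COM33 1, 0.156 without Carbo+COM33 2, 0.0508 without Carbo+COM33 3 (PTTG1) and 0.0725 without Carbo 2. E2F2 (adjusted p = 0.0541) was no longer called once GC content and length were corrected for.

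Interferon-stimulated genes moved both ways: 5 rose and 3 fell of 41 tested (19.5% called), with a median log2 fold change of 0.11. The rises were IFIT3 (0.40, adjusted p = 0.0294), PARP9 (0.41, adjusted p = 0.0246), OAS3 (0.49, adjusted p = 0.0126), SAMD9L (0.62, adjusted p = 0.0293) and IRF1 (0.65, adjusted p = 0.0415), and the falls IFITM1 (-1.52, adjusted p = 0.0239), OASL (-0.57, adjusted p = 0.0420) and IFIT1 (-0.49, adjusted p = 0.0331). IRF1 has 22.0% and IFITM1 32.5% of exon bases in another gene. GBP3, an interferon-inducible GTPase outside that list and one of the 10 genes with the lowest p, was at 24.4, 24.1 and 23.3 CPM in control, 27.8, 27.4 and 28.4 in Carbo and 43.8, 45.2 and 42.1 in Carbo+COM33 (log2 fold change 0.87, SE 0.09, adjusted p = 5.67e-04). In MHC class I presentation 2 rose and 0 fell of 19 tested (10.5% called), with a median log2 fold change of 0.09; the peptide-trimming enzyme ERAP2 was at 73.5, 78.3 and 83.4 CPM in control, 91.0, 93.9 and 111 in Carbo and 130.3, 142 and 120.1 in Carbo+COM33 (log2 fold change 0.74, SE 0.10, adjusted p = 0.00200), with Carbo between the groups, and the peptide transporter TAP2 rose (0.65, adjusted p = 0.0207). Among heat shock proteins 1 of 26 was called (3.85%). HSPB8, a small chaperone, was at 21.5, 20.2 and 21.4 CPM in control, 27.4, 19.6 and 16.3 in Carbo and 41.8, 42.9 and 46.1 in Carbo+COM33 (log2 fold change 1.05, SE 0.15, adjusted p = 0.00315). MT2A, a metal-binding metallothionein with close paralogs, rose (0.62, adjusted p = 0.0261). LYST, a regulator of lysosome size and also among the 10 lowest p, rose (0.69, adjusted p = 0.00146). None of the 35 ATF4 and unfolded protein response genes was called by edgeR, with 4 higher and 3 lower at an unadjusted p under 0.05, and DESeq2 called 0 higher and 2 lower. The 12 mitochondrially encoded genes had no call by edgeR either, with 2 higher and 1 lower at an unadjusted p under 0.05, and DESeq2 called 0 higher and 0 lower. Of aminoacyl-tRNA synthetases 2 rose and 0 fell of 20 tested (10.0% called), with a median log2 fold change of 0.08, GARS (0.35, adjusted p = 0.0322) and RARS (0.41, adjusted p = 0.0376). Without 1 of the libraries, calls went from 0 (without control 2) to 13 (without Carbo 1) for interferon-stimulated genes, 1 (without control 2) to 3 (without Carbo+COM33 3) for MHC class I, 1 (without control 2) to 6 (without Carbo+COM33 3) for heat shock, 0 (without control 2) to 6 (without Carbo 1) for ATF4 and the unfolded protein response, 0 (without control 2) to 3 (without Carbo+COM33 3) for mitochondrially encoded genes and 0 (without control 2) to 5 (without Carbo+COM33 3) for the synthetases. With each of the 9 libraries left out in turn, GBP3, ERAP2, HSPB8 and LYST kept the call. IFIT3, PARP9, OAS3, SAMD9L, IRF1, IFITM1, OASL, IFIT1, TAP2, MT2A, GARS and RARS lost it in 1 or more of those fits. In those fits the highest adjusted p was 0.111 without control 1, 0.188 without control 2, 0.1495 without control 3, 0.191 without Carbo+COM33 1, 0.156 without Carbo+COM33 2, 0.0721 without Carbo+COM33 3 and 0.0650 without Carbo 2. OASL (adjusted p = 0.0576) was no longer called once GC content and length were corrected for.

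**Figure D4:**
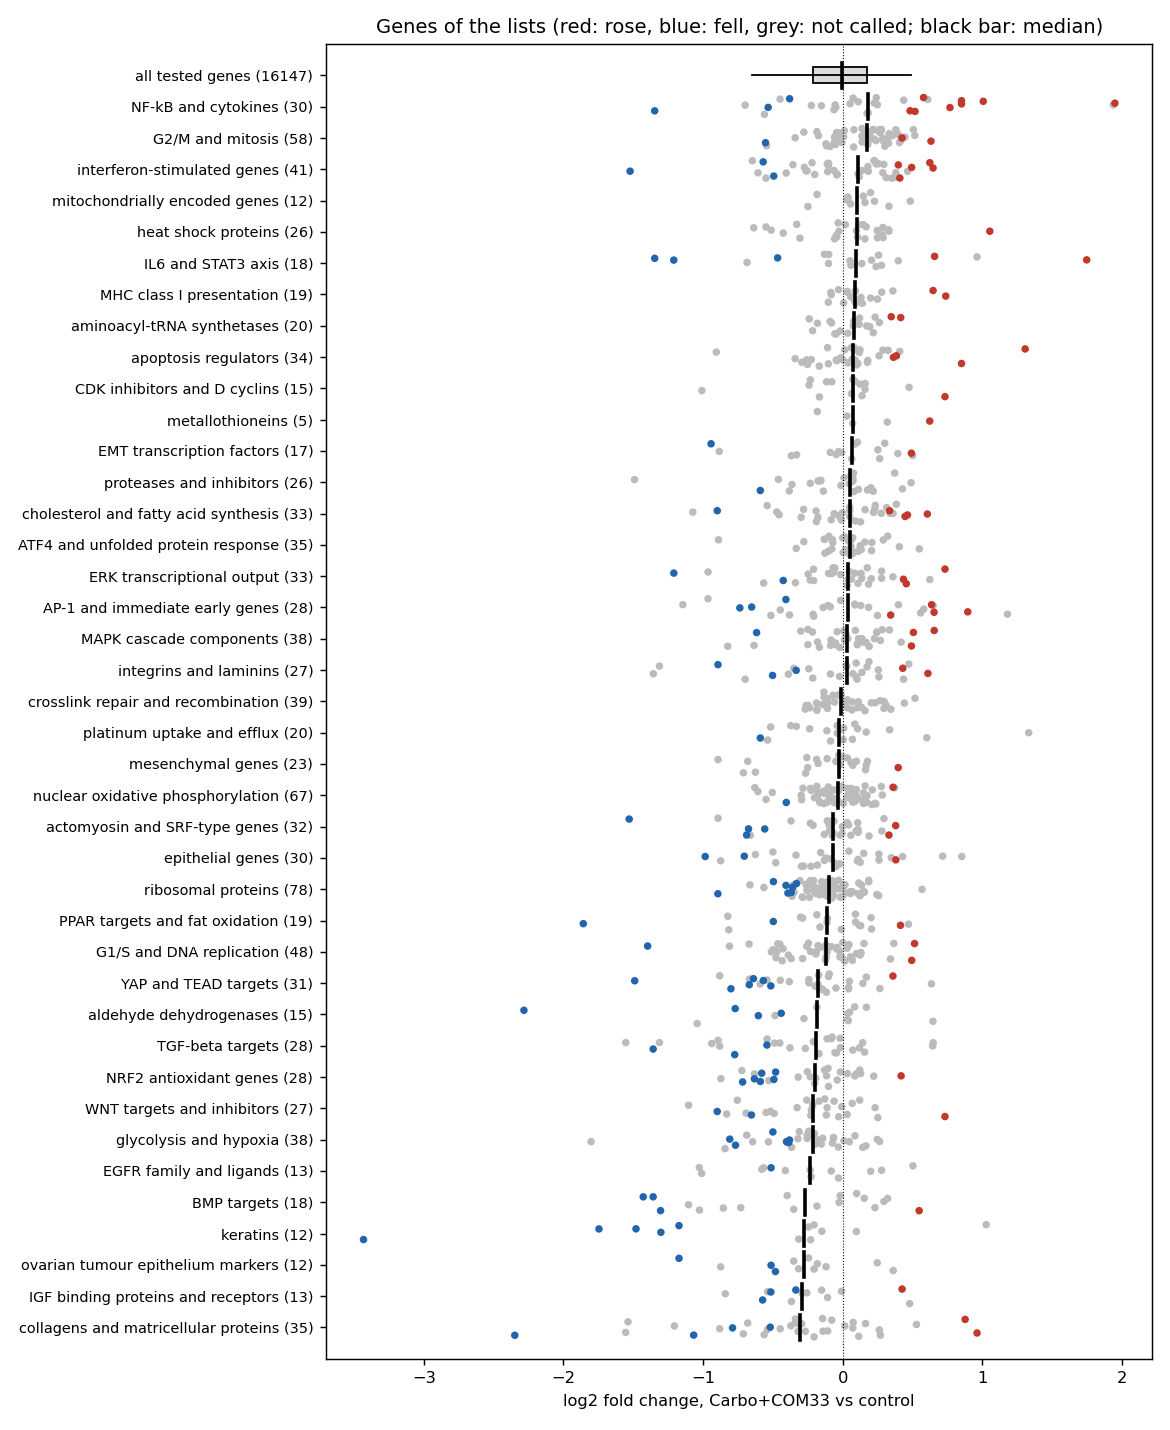
Log2 fold change, Carbo+COM33 against control, of the tested genes of the lists shown (number in brackets), with red points called higher, blue called lower, grey not called and a black bar at the median; the box at the top shows all 16147 tested genes (box: quartiles; whiskers: 5th and 95th percentiles). The NF-kappaB list has the highest median (0.18) and collagens and matricellular proteins the lowest (-0.31).

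Some genes that stand out by level or spread in other pairings of these libraries were not called against control. CYP24A1, the vitamin D-degrading enzyme, was at 14.1, 50.6 and 61.1 CPM in control, 21.1, 129 and 236 in Carbo and 13.7, 16.1 and 16.5 in Carbo+COM33 (log2 fold change -1.44, SE 0.67, adjusted p = 0.204). It was called without Carbo 1 (adjusted p = 0.0244) and in the fit of the 6 libraries alone (adjusted p = 0.0292). The gene of the calcium-binding protein S100A2 was at 287, 136 and 119 CPM in control, 123, 66.9 and 59.4 in Carbo and 131, 119 and 257 in Carbo+COM33 (log2 fold change -0.09, SE 0.36, adjusted p = 0.904). For S100A2 the levels of Carbo+COM33 overlapped those of control, with Carbo+COM33 3 next to control 1 at the top. EDF1, a transcriptional coactivator, was at 264, 175 and 147 CPM in control, 129, 79.3 and 64.4 in Carbo and 108, 101 and 244 in Carbo+COM33 (log2 fold change -0.37, SE 0.33, adjusted p = 0.522). The potassium channel gene KCNQ1 was at 6.16, 5.59 and 4.71 CPM in control, 1.96, 3.12 and 1.74 in Carbo and 2.66, 4.27 and 3.81 in Carbo+COM33 (log2 fold change -0.61, SE 0.24, adjusted p = 0.148); its Carbo+COM33 values lay below control without a call. These comparisons share libraries, so the values are given side by side only.

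How many genes were called depended on single libraries. With Carbo+COM33 3 left out 2234 genes were called, and with control 2 left out 118. Calls fell to 151 without Carbo+COM33 1, 185 without Carbo+COM33 2 and 194 without control 3. For 112 genes, 61 higher and 51 lower, the call survived the loss of any 1 of the 9 libraries. All 112 were also called after the GC and length trend was removed. They include NAV2, NDRG4, CSF2, HRK, TNFAIP3 and IL6ST among the rises and SMOC1, KRT17, IL6, SOX4, NID2 and EBP among the falls.

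**Figure D5:**
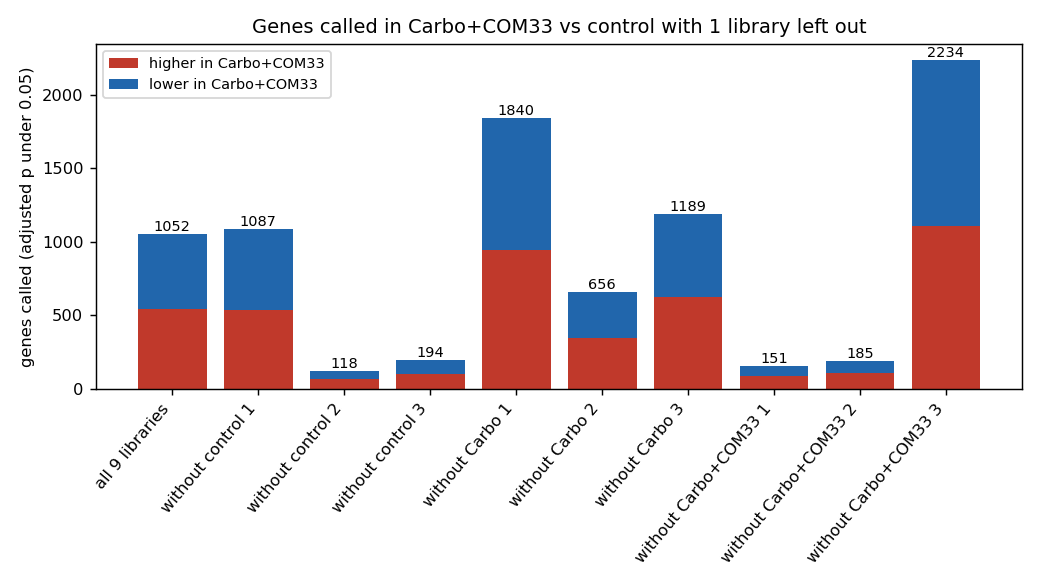
Genes called in Carbo+COM33 against control (adjusted p under 0.05) with all 9 libraries and with each left out in turn, stacked as higher (red) and lower (blue). The count runs from 118 without control 2 to 2234 without Carbo+COM33 3, around 1052 with all libraries.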

How the data were processed

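RNA of 9 SKOV3 libraries (3 control, 3 Carbo, 3 Carbo+COM33) was sequenced as 150 bp paired-end reads after poly-T selection, per the labels' protocols. The authors deposited 1 table of raw counts per gene and FPKM values for the same genes. HISAT2, HTSeq 0.11.2, DESeq2 1.26.0 and GRCh38 are named in the submitters' processing notes, with no roles; the strand setting is not given in the sources used here. All 32378 gene IDs and names matched GENCODE 29, from which positions, lengths and GC content were taken; FPKM lengths lay within 0.5 bp of its exon unions for 32283 genes.

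From the deposited counts, genes with at least 10 counts in 3 or more of the 6 libraries were fitted over all 9 libraries with edgeR 4.0.16 (R 4.3.3): TMM scaling, quasi-likelihood test on group, Benjamini-Hochberg adjustment over 16147 genes, calls under 0.05. Standard errors are the log2 fold change over the square root of F. CPM values are TMM-scaled. The precision is set by 3 libraries a group and 6 residual degrees of freedom; library totals were 13851760 to 15533668.

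Genes were named by these rules: the 15 largest rises and falls among called protein-coding genes with separate groups and at least 5 CPM in the higher group; the 2 lowest p per list and direction; the 10 lowest p; fixed question genes. The 45 lists, their members and the comparison were chosen with earlier results of these data known. Alternatives were RLE size factors, DESeq2 1.42.0, other filters, the 6 libraries alone, a replicate block, limma 3.58.1 on log2(FPKM + 0.1), a GC and length correction and leaving out each library. Every library and mapped column was used. Some genes are not reported here, so the members named can be fewer than a list's count.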

Additional observations from a re-analysis of the deposited data

How the results depend on the processing

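Against 1052 genes called (545 higher, 507 lower), DESeq2 called 1581 (852 higher), the fit with no filter on low counts 1921 (902 higher, 1019 lower, of 31043 tested) and limma on log2(FPKM + 0.1) 677 (297 higher). RLE size factors, edgeR's own expression filter, the 6 libraries alone and the GC and length correction gave 1073, 1035, 1453 and 975. The GC and length correction kept 715 of the 1052 calls. Over the 6 libraries alone, a version chosen after seeing the data, it called 1566 (899 higher). The 1052 genes kept their sign under every alternative in which they were tested. This was largely set by the selection, since the groups did not overlap in 1050 of them and the alternatives reuse the same libraries. Leaving out 1 library gave 118 to 2234 calls, 65 to 1104 of them higher and 53 to 1130 lower; the cause was not tested. When replicate numbers entered as a block, 1632 genes were called over 9 libraries (833 higher, 799 lower) and 1102 over 6, and 1754 (1017 higher) over 6 with the GC and length correction. EGR1 (adjusted p = 0.0156) and CYP24A1 (adjusted p = 0.0200), not called with all 9 libraries and no block, were called with the block over 6, and both and EDF1 with no filter on low counts. The numbers did not pair control with Carbo+COM33: same-numbered deviations correlated at 0.085, 0.101 and -0.420 over 6609 genes, and control 3 correlated best with Carbo+COM33 2 (0.524). Same-numbered control and Carbo libraries, both in the fit of 9, correlated at 0.824, 0.565 and 0.748.

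Uncalled genes near 0 changed sign. Log2 fold changes with 1 library left out ran over -0.29 to 0.47 for SNAI1, -0.082 to 0.35 for FOS, -0.018 to 0.14 for DUSP6, -0.022 to 0.076 for SPRY2, -0.036 to 0.13 for CDH2, -0.047 to 0.10 for MYC, -0.035 to 0.074 for MAPK3 and -0.53 to 0.41 for S100A2. With limma on FPKM, CDH2 was at -0.00120, MYC at -0.00111 and MAPK3 at -0.00480. With the GC and length correction CDH2 was at -0.00951, over the 6 libraries at -0.012, and with the replicate block as well at -0.013, where S100A2 was at 0.013. The cause was not tested. Depth limits low genes: a count was worth 0.0636 to 0.0739 CPM.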

Other observations

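Lysosomal genes, a group listed after the values were seen, held several rises. The lysosome digests protein, lipid and sugar chains with acid hydrolases, the V-ATPase acidifies it, and the Ragulator and Rag complex on its surface signals nutrient supply. For scale, 3.38% of all genes tested were called higher and 3.14% lower, with a median log2 fold change of -0.01. Of lysosomal hydrolases and their activators 11 rose and 1 fell of 50 tested, with a median log2 fold change of 0.06. TPP1, a peptidase, was at 175, 167 and 168 CPM in control, 213, 193 and 196 in Carbo and 355, 348 and 253 in Carbo+COM33 (log2 fold change 0.91, SE 0.11, adjusted p = 0.00193), above all other libraries. The sialidase NEU1 (0.86, adjusted p = 0.00315), the lipid-binding activator GM2A (0.75, adjusted p = 0.0157) and the cathepsins CTSS (0.76, adjusted p = 0.0149), CTSL (0.49, adjusted p = 0.0461) and CTSB (0.32, adjusted p = 0.0267) were among the rises, and the fall was HYAL2 (-0.45, adjusted p = 0.0374). Of lysosomal membrane proteins 5 rose and 0 fell of 20 tested, with a median log2 fold change of 0.26; NPC1, which exports cholesterol, was at 191, 148 and 153 CPM in control, 201, 159 and 168 in Carbo and 297, 261 and 274 in Carbo+COM33 (log2 fold change 0.75, SE 0.11, adjusted p = 0.00385). LAMP2 rose as well (0.44, adjusted p = 0.0159). Of V-ATPase subunits 4 rose and 0 fell of 16 tested, with a median log2 fold change of 0.20, and ATP6V1B2 was at 129, 108 and 101 CPM in control, 132, 90.3 and 93.5 in Carbo and 175, 164 and 173 in Carbo+COM33 (log2 fold change 0.60, SE 0.13, adjusted p = 0.0233). Of the MiT factors, Ragulator and Rag genes 5 rose and 1 fell of 15 tested, with a median log2 fold change of 0.19: RRAGD (0.84, adjusted p = 0.00770) and FNIP1 (0.55, adjusted p = 0.0120) were among the rises, and TFEB, itself a transcription factor of lysosomal genes, fell (-0.92, adjusted p = 0.0278). TPP1, NEU1 and NPC1 kept the call with each of the 9 libraries left out. CTSS, GM2A, CTSL, CTSB, LAMP2, ATP6V1B2, RRAGD, FNIP1, TFEB and HYAL2 lost it without 1 or more of control 2, control 3, Carbo+COM33 1, Carbo+COM33 2, Carbo+COM33 3 and Carbo 2, with a highest adjusted p of 0.0596 to 0.185. HYAL2 (adjusted p = 0.158) and ATP6V1B2 (adjusted p = 0.0762) were no longer called once GC content and length were corrected for. Calls with a library left out numbered from 3 (without control 2) to 14 (without Carbo 1) for hydrolases, 3 (without control 2) to 6 (without Carbo+COM33 3) for membrane proteins, 0 (without control 2) to 7 (without Carbo+COM33 3) for the V-ATPase and 2 (without control 2) to 7 (without Carbo+COM33 3) for the MiT and Ragulator list. The palindrome TCACGTGA, the core of the motif bound by such factors, was in 0 of the 10 promoters of rising hydrolase and membrane genes with a RefSeq window, in 6 of 50 over the tested ones (12.0%) and in 1.82% of promoters of tested genes.

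Pregnancy-specific glycoproteins, secreted relatives of the CEACAM family clustered on chromosome 19, were also listed after their values were seen. In this family 8 rose and 0 fell of 10 tested, with a median log2 fold change of 0.90. Over all genes tested, 3.38% were called higher and 3.14% lower. PSG4 was at 59.6, 68.1 and 72.4 CPM in control, 68.3, 69.3 and 73.8 in Carbo and 122, 131 and 96.7 in Carbo+COM33 (log2 fold change 0.80, SE 0.11, adjusted p = 0.00308), and PSG1 at 29.1, 37.3 and 37.0 CPM in control, 37.9, 40.2 and 34.4 in Carbo and 57.1, 71.1 and 55.6 in Carbo+COM33 (log2 fold change 0.83, SE 0.12, adjusted p = 0.00378). Their sequences are alike, so reads may be split between them and single members are uncertain. The loss of 1 library moved calls over the range 5 (without control 2) to 8 (without Carbo+COM33 3) in this family.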
